A study of Mus musculus with 9 samples.

Results

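Of the 21083 features tested across these arrays, 9 genes of B cells, plasma cells and the transport of immunoglobulin A (IgA) were followed through every group. They were taken by symbol: Cd79a, Cd79b, Ms4a1 and Cd22 of B cells, Mzb1, Jchain, Pou2af1 and Tnfrsf17 of antibody-secreting cells and their regulation, and Pigr of the epithelium. All 9 had at least 1 named probe and were well above background on all 9 arrays. The tissue was colonic mucosa, labelled as normal, of ICR mice, an outbred stock. In the group called hCA-Tumor (n = 3 arrays) mice on a diet with 3% calcium bore tumors, and in hCA-Notumor (n = 3) mice on that same diet were free of them. The DMH group (n = 3) had eaten a normal diet with 1.24% calcium, and its tumor status is labelled only as control. All 3 groups had been given 1,2-dimethylhydrazine, which causes tumors of the rodent colon, by weekly subcutaneous injection of 20 mg/kg for 20 weeks, so no group was free of the carcinogen. Nothing in the labels tells whether arrays of 1 group represent separate mice or pools. The p-values then reflect the spread among these arrays alone, and that spread may be technical.

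The colonic lamina propria holds plasma cells that secrete mainly IgA. These cells arise from B cells, which recognise antigen through a surface immunoglobulin coupled to the signalling chains CD79A and CD79B. The J chain joins IgA monomers into polymers, and the polymeric immunoglobulin receptor encoded by Pigr carries polymeric IgA through epithelial cells into the lumen.

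Values are log2 of the background-subtracted signal after subtraction of each array's 75th percentile, called the scaled log2 signal, and they compare 1 gene between arrays, not genes with each other. The 75th percentile ran from 572.5 to 819.2 signal units over a median local background of 33.5 to 50, between 61.1 and 73.8% of probes were well above background, and 0 spots were saturated. Precision is limited by the number of arrays. Slide 1 carried the 3 hCA-Notumor arrays with DMH replicate 1, slide 2 carried hCA-Tumor replicates 1 and 2 with DMH replicates 2 and 3, and slide 3 carried hCA-Tumor replicate 3 alone. hCA-Tumor and hCA-Notumor therefore shared no slide, and their comparison could be corrected for slide only through the DMH arrays. A difference is the first group minus the second on the log2 scale, with its standard error (SE), and it is called where its Benjamini-Hochberg adjusted p over all 21083 features is under 0.05. Of these, 37% were called between hCA-Tumor and DMH, 35.7% between hCA-Notumor and DMH and 47.6% between hCA-Tumor and hCA-Notumor. The median difference of all features was 0.08, 0.07 and 0.00 in these comparisons. With the authors' deposited table, which differs from these values almost only by a constant per array, it was -0.06, -0.14 and 0.09 over 18458 features.

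RefSeq promoter windows on build GRCm38.p6 were used for 6 of the 9 genes. They ran from 250 bases before to 50 after the start of the gene. The windows of Cd79a (chr7:24897247-24897546, plus strand), Tnfrsf17 (chr16:11313559-11313858, plus strand), Cd22 (chr7:30878979-30879278, minus strand) and Pigr (chr1:130826434-130826733, plus strand) held a searched motif and are shown. Each reads 5′ to 3′ on the strand of its gene. The windows of Jchain and Pou2af1 held none and are not shown. Capitals mark a motif searched as exact letters on both strands.
Cd79a: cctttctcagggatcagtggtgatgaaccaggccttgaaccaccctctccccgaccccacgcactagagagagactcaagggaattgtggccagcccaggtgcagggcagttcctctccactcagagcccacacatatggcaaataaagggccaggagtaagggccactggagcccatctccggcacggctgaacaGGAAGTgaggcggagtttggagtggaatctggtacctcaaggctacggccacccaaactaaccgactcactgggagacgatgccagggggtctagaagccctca
Tnfrsf17: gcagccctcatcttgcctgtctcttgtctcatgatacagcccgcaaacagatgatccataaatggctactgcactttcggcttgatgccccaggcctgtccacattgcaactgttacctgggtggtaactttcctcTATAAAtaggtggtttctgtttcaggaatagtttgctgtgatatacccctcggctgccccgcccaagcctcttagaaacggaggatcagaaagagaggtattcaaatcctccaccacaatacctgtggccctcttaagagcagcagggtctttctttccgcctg
Cd22: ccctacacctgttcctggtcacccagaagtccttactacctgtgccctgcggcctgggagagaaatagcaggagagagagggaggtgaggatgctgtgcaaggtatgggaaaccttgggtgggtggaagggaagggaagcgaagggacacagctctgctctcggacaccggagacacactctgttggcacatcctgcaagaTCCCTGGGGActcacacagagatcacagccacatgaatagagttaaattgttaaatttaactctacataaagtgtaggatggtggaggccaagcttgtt
Pigr: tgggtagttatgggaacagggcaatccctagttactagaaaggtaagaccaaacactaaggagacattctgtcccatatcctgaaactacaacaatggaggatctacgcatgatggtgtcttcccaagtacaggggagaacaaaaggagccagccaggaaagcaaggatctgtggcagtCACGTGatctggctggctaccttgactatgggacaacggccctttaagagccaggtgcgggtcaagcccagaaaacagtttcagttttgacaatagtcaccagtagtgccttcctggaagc
The capitals are an Ets core (GGAAGT) 54 bases before the start of Cd79a, a TATA box (TATAAA) 114 bases before that of Tnfrsf17, a site of the EBF type (TCCC, any 2 bases, GGGA) 49 bases before that of Cd22, and an E-box (CACGTG) 71 bases before that of Pigr. Over all 32851 promoter windows of the same length, 23.8% held the Ets core, 13.6% the TATA box, 0.904% the EBF site and 7.15% the E-box. The octamer (ATGCAAAT), which is known as a site of the Oct factors that Pou2af1 assists, was found in 1.74% of all windows and in 0 of the 6. These matches describe letters in a window and show no binding.

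In the mucosa of tumor-bearing mice on high calcium, 8 of the 9 genes were lower than in the DMH group (15.9% of all features were called lower) and 6 of the 9 were lower than in tumor-free mice on the same diet (20.6% of all features). These falls ran from 1.24-fold to 2.13-fold. The same 8 genes had all hCA-Tumor arrays below all DMH arrays (21.2% of all features did), and the same 6 had them below all hCA-Notumor arrays (25.8% of all features). In tumor-free mice, by contrast, 1 gene was higher than in the DMH group, Pigr, and 2 were lower, Cd22 and Pou2af1 (18.4% of all features were called higher and 17.3% lower). Arrays of hCA-Notumor lay wholly above DMH for Pigr (33.7% of all features) and wholly below it for Cd79b, Cd22 and Pou2af1 (24.1% of all features). The median difference of the 9 genes was -0.47 between hCA-Tumor and DMH, -0.14 between hCA-Notumor and DMH and -0.55 between hCA-Tumor and hCA-Notumor. In bulk tissue, fewer cells of a type and less RNA per cell cannot be told apart.

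**Figure D1:**
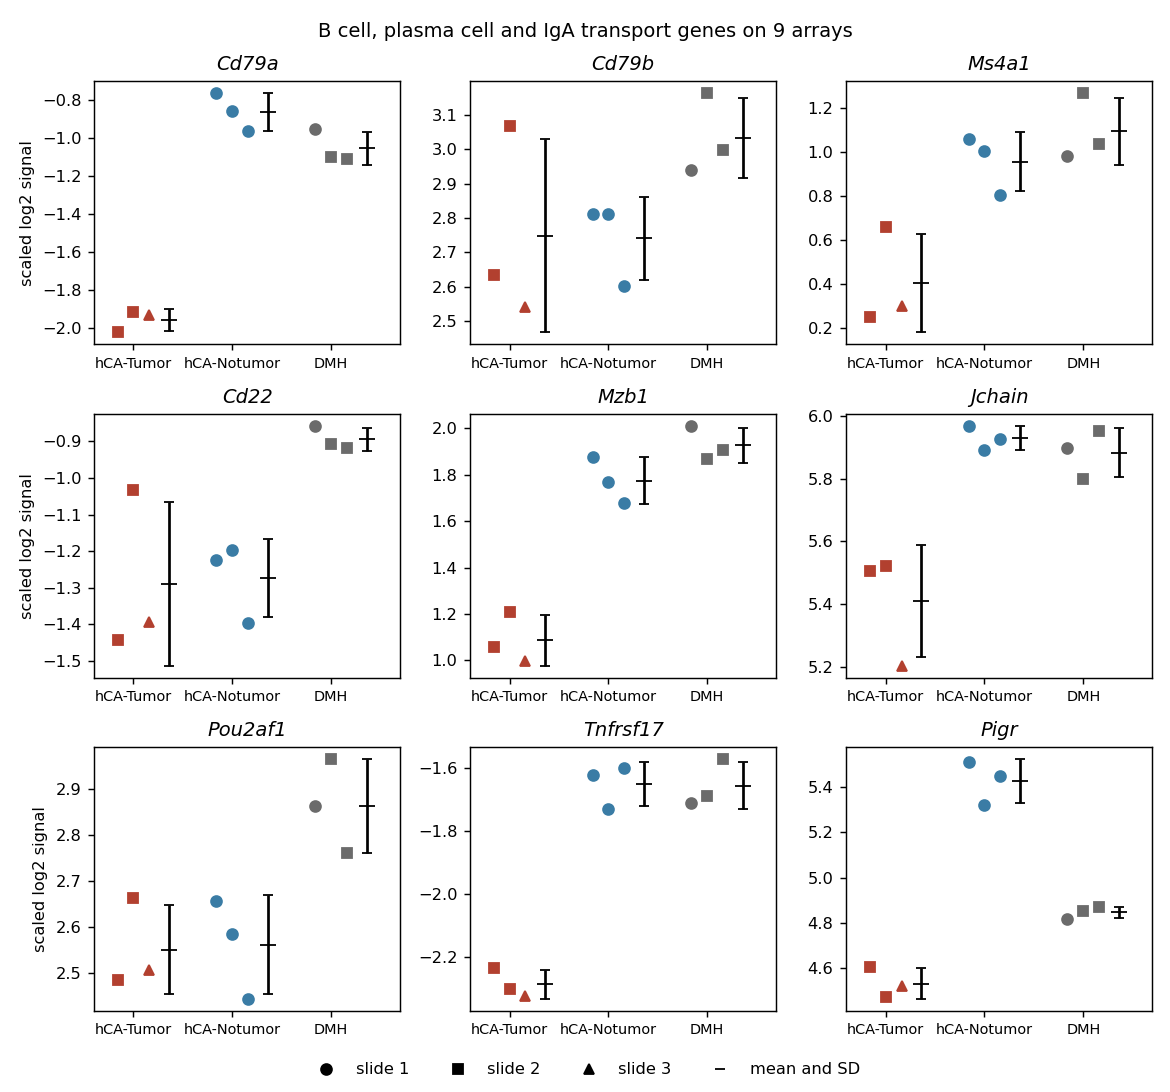
Scaled log2 signal (vertical axis, each panel with its own range) of the 9 genes on each array, with hCA-Tumor in red, hCA-Notumor in blue and DMH in grey, the symbol giving the slide and the bar the mean and SD of 3 arrays. For Cd79a, Ms4a1, Mzb1, Jchain and Tnfrsf17 the 3 hCA-Tumor points lie below all others, whereas for Cd22 and Pou2af1 the DMH points lie above all others.

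Cd79a encodes a signalling chain of the B cell receptor. Its scaled log2 signal was -2.02, -1.92 and -1.93 on the hCA-Tumor arrays, -0.77, -0.86 and -0.97 on the hCA-Notumor arrays and -0.96, -1.10 and -1.11 on the DMH arrays. The hCA-Tumor arrays lay below all 6 others, and the hCA-Notumor and DMH arrays overlapped. Cd79a was 2.13-fold lower in hCA-Tumor than in hCA-Notumor (difference -1.09 ± 0.07, SE, adjusted p = 4.72e-05) and 1.87-fold lower than in DMH (-0.90 ± 0.07, adjusted p = 0.000218). After normexp background correction these differences were smaller, -0.74 and -0.59. Between hCA-Notumor and DMH the difference of 0.19 ± 0.07 was not called (adjusted p = 0.0741, 95% interval 0.02 to 0.36), though leaving out DMH replicate 1 brought it past the threshold (0.24, adjusted p = 0.0339), as did weighting arrays by quality (adjusted p = 0.0209).

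Cd79b, the partner chain, had 2.63, 3.07 and 2.54 in hCA-Tumor, 2.81, 2.81 and 2.60 in hCA-Notumor and 2.94, 3.16 and 3.00 in DMH. Both high calcium groups had nearly equal means (2.75 ± 0.28 in hCA-Tumor and 2.74 ± 0.12 in hCA-Notumor, SD, n = 3 each), and replicate 2 of hCA-Tumor lay among the DMH arrays. Cd79b passed in none of the comparisons: its difference was -0.29 ± 0.14 between hCA-Tumor and DMH (adjusted p = 0.165), -0.29 ± 0.14 between hCA-Notumor and DMH (adjusted p = 0.152) and 0.01 ± 0.14 between hCA-Tumor and hCA-Notumor (95% interval -0.33 to 0.34). Without hCA-Tumor replicate 2 it was called lower in hCA-Tumor than in DMH (-0.45, adjusted p = 0.0191) and lower in hCA-Notumor than in DMH (adjusted p = 0.0473). The change of Cd79a minus that of Cd79b was -1.10 between hCA-Tumor and hCA-Notumor and -0.61 between hCA-Tumor and DMH. This contrast of the 2 chains was chosen after their values were seen, and its exact two-sided permutation p over arrays was 0.1 in each case, the smallest that 20 splits can give.

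Ms4a1 encodes CD20, a surface protein of mature B cells. It had 0.25, 0.66 and 0.30 in hCA-Tumor, 1.06, 1.00 and 0.81 in hCA-Notumor and 0.98, 1.27 and 1.04 in DMH. All hCA-Tumor arrays lay below the others, and the hCA-Notumor and DMH arrays overlapped. Ms4a1 was 1.61-fold lower in hCA-Tumor than in DMH (-0.69 ± 0.13, adjusted p = 0.00604) and 1.47-fold lower than in hCA-Notumor (-0.55 ± 0.13, adjusted p = 0.0116). The call against hCA-Notumor was lost with slide as a block (-0.67, adjusted p = 0.0938) and on the authors' deposited table (adjusted p = 0.0847). Between hCA-Notumor and DMH its difference was -0.14 ± 0.13 (adjusted p = 0.431, 95% interval -0.45 to 0.17).

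Cd22, an inhibitory lectin of the B cell surface, followed another order. Its signal was -1.44, -1.03 and -1.39 in hCA-Tumor, -1.22, -1.20 and -1.40 in hCA-Notumor and -0.86, -0.91 and -0.92 in DMH. The DMH arrays lay above all 6 high calcium arrays, which overlapped each other. Cd22 was 1.32-fold lower in hCA-Tumor than in DMH (-0.40 ± 0.11, adjusted p = 0.0281) and 1.3-fold lower in hCA-Notumor than in DMH (-0.38 ± 0.11, adjusted p = 0.0346). Between the high calcium groups the difference was -0.02 ± 0.11 (adjusted p = 0.916, 95% interval -0.28 to 0.25). The calls of Cd22 against DMH were near the threshold: with slide as a block the adjusted p was 0.115 for hCA-Tumor and 0.119 for hCA-Notumor, and leaving out any DMH array ended both (adjusted p 0.0665 to 0.0848), as did leaving out hCA-Tumor replicate 1 or 3 for hCA-Tumor (0.0873 and 0.0684) and any hCA-Notumor array for hCA-Notumor (0.0594 to 0.109). A second Cd22 probe was well above background on only 5 of 9 arrays and was not tested. Its mean signal was -5.70 in hCA-Tumor, -4.98 in hCA-Notumor and -5.01 in DMH, an order unlike that of the tested probe.

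Among the genes of antibody-secreting cells, Mzb1 encodes an endoplasmic reticulum protein that assists the folding and secretion of immunoglobulin. It had 1.06, 1.21 and 1.00 in hCA-Tumor, 1.88, 1.77 and 1.68 in hCA-Notumor and 2.01, 1.87 and 1.90 in DMH. The hCA-Tumor arrays lay below all 6 others, and hCA-Notumor and DMH overlapped. Mzb1 was 1.79-fold lower in hCA-Tumor than in DMH (-0.84 ± 0.08, adjusted p = 0.000378) and 1.61-fold lower than in hCA-Notumor (-0.69 ± 0.08, adjusted p = 0.000449). Its probe was printed repeatedly on each array, and the SD between its spots was 0.03 to 0.07 on the log2 scale. Between hCA-Notumor and DMH the difference was -0.15 ± 0.08 (adjusted p = 0.171, 95% interval -0.34 to 0.03).

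**Figure D2:**
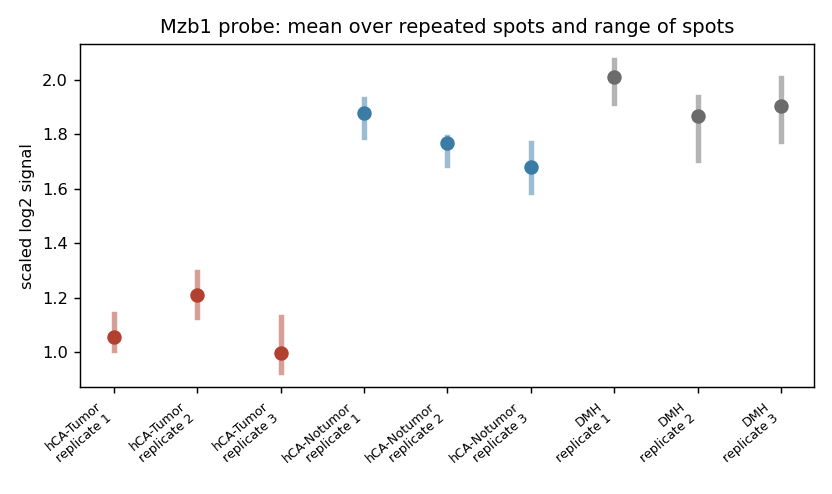
Scaled log2 signal of the repeatedly printed Mzb1 probe on each of 9 arrays (horizontal axis, hCA-Tumor, hCA-Notumor, DMH), with the mean over spots as a point and the range of the spots as a bar. No spot range of an hCA-Tumor array reaches a spot range of the other groups, while the ranges of hCA-Notumor and DMH arrays meet.

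Tnfrsf17 encodes BCMA, a receptor of plasma cells for the survival factor APRIL. It had -2.23, -2.30 and -2.32 in hCA-Tumor, -1.62, -1.73 and -1.60 in hCA-Notumor and -1.71, -1.69 and -1.57 in DMH. The hCA-Tumor arrays were again the lowest, with an SD of 0.05, and the others overlapped. Tnfrsf17 was 1.55-fold lower in hCA-Tumor than in DMH (-0.63 ± 0.06, adjusted p = 0.000386) and 1.55-fold lower than in hCA-Notumor (-0.63 ± 0.06, adjusted p = 0.000193). After normexp correction these were -0.31 (adjusted p = 0.0252) and -0.43 (adjusted p = 0.00416). Its difference between hCA-Notumor and DMH was 0.01 ± 0.06 (adjusted p = 0.944, 95% interval -0.13 to 0.15).

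Jchain, also called Igj, had 5.51, 5.52 and 5.21 in hCA-Tumor, 5.97, 5.89 and 5.93 in hCA-Notumor and 5.90, 5.80 and 5.95 in DMH on its brighter probe. The hCA-Tumor arrays lay below all others, and hCA-Notumor and DMH overlapped. Jchain was 1.39-fold lower in hCA-Tumor than in DMH (-0.47 ± 0.09, adjusted p = 0.00612) and 1.43-fold lower than in hCA-Notumor (-0.52 ± 0.09, adjusted p = 0.00292). The dimmer probe of the gene gave a like fall against DMH (-0.55 ± 0.14, adjusted p = 0.0175) but was not called against hCA-Notumor (-0.28 ± 0.14, adjusted p = 0.135). On the authors' deposited table neither call of Jchain held (adjusted p = 0.0621 against DMH and 0.105 against hCA-Notumor).

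Pou2af1 encodes OBF-1, a coactivator of the Oct transcription factors in B cells. It had 2.48, 2.66 and 2.51 in hCA-Tumor, 2.66, 2.58 and 2.44 in hCA-Notumor and 2.86, 2.97 and 2.76 in DMH. As for Cd22, the DMH arrays lay above all high calcium arrays and the high calcium groups overlapped. Pou2af1 was 1.24-fold lower in hCA-Tumor than in DMH (-0.31 ± 0.08, adjusted p = 0.0225) and 1.23-fold lower in hCA-Notumor than in DMH (-0.30 ± 0.08, adjusted p = 0.0271), against -0.01 ± 0.08 between the high calcium groups (95% interval -0.21 to 0.19). With slide as a block the adjusted p against DMH was 0.0809 for hCA-Tumor and 0.137 for hCA-Notumor, and without DMH replicate 2 it was 0.072 for hCA-Tumor and 0.0911 for hCA-Notumor. The call for hCA-Tumor was also lost without its replicate 1 (0.0743) or 3 (0.0538), and that for hCA-Notumor without its replicate 2 (0.0618) or 3 (0.0857).

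Pigr, the epithelial receptor that transports IgA, was the member whose 3 groups separated completely. Its signal was 4.60, 4.47 and 4.52 in hCA-Tumor, 5.51, 5.32 and 5.45 in hCA-Notumor and 4.82, 4.85 and 4.87 in DMH. All hCA-Notumor arrays lay above, and all hCA-Tumor arrays below, the DMH arrays. Pigr was 1.86-fold lower in hCA-Tumor than in hCA-Notumor (-0.89 ± 0.06, adjusted p = 5.95e-05), 1.24-fold lower in hCA-Tumor than in DMH (-0.31 ± 0.06, adjusted p = 0.00675) and 1.5-fold higher in hCA-Notumor than in DMH (0.58 ± 0.06, adjusted p = 0.000459). The fall against DMH was not called after normexp background correction (adjusted p = 0.0638) or on the authors' deposited table (adjusted p = 0.104), and the rise in hCA-Notumor was not called on that table (0.39, adjusted p = 0.12).

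Differences were also read within slides. On slide 2, with 2 hCA-Tumor and 2 DMH arrays, Cd79a fell by 0.86, Mzb1 by 0.75, Ms4a1 by 0.70, Tnfrsf17 by 0.64, Jchain by 0.36, Cd22 by 0.33, Pigr by 0.32, Pou2af1 by 0.29 and Cd79b by 0.23 on the log2 scale. On that slide 8441 of the 21083 features were called, and 5 of the 9 genes, while Ms4a1 (adjusted p = 0.0541), Cd22 (0.184), Pou2af1 (0.116) and Cd79b (0.36) were not. On slide 1, with 3 hCA-Notumor arrays and 1 DMH array, Pigr was 0.61, Cd79a 0.09, Tnfrsf17 0.06 and Jchain 0.03 higher in hCA-Notumor. There Cd22 was 0.41, Pou2af1 0.30, Mzb1 0.24, Cd79b 0.20 and Ms4a1 0.02 lower. The lone DMH array gives no spread of its own there, so these are given as sizes, without calls. With slide as a block, 6319 of the 21083 features were called between hCA-Tumor and hCA-Notumor. The differences were -0.95 for Cd79a, -0.93 for Pigr, -0.69 for Tnfrsf17, -0.52 for Mzb1 and -0.39 for Jchain, all 5 called. Ms4a1 (adjusted p = 0.0938), Cd22 (0.779), Cd79b (0.93) and Pou2af1 (0.962) were not. In that fit DMH replicate 1 alone links slide 1 to the other slides.

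**Figure D3:**
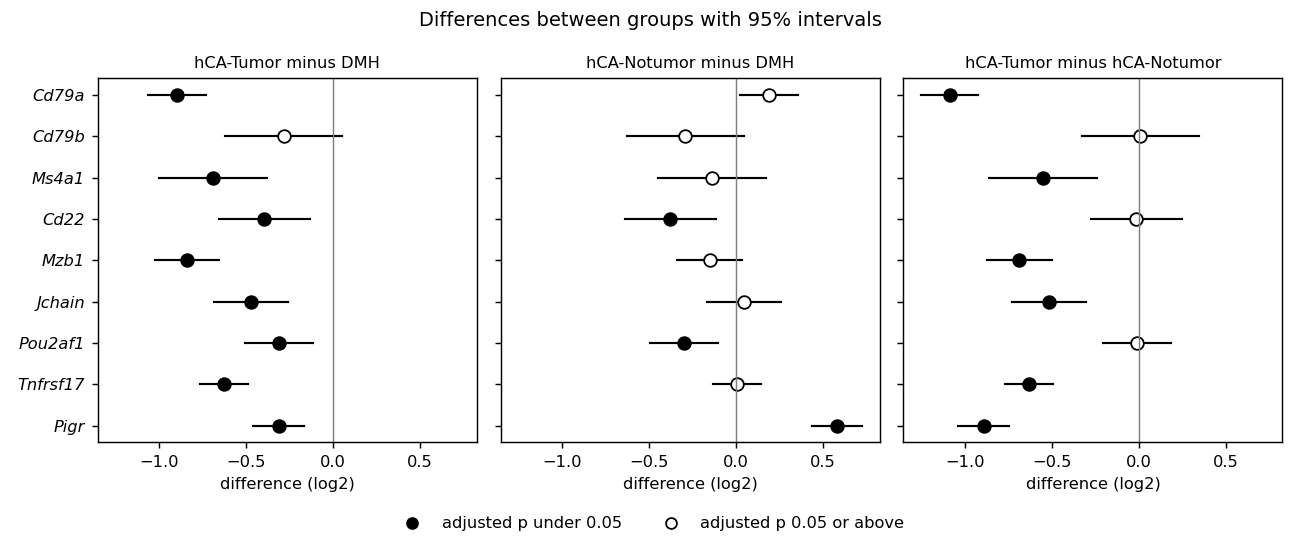
Difference in log2 units (horizontal axis) of each of the 9 genes in 3 comparisons, with 95% intervals as bars and filled points where the adjusted p was under 0.05. In the left panel 8 points lie left of 0 and are filled, in the middle panel Pigr alone is filled on the right, and in the right panel Cd79b, Cd22 and Pou2af1 are open and sit near 0.

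The contrast named in the series' design, high calcium against DMH, was fitted as the mean of hCA-Tumor and hCA-Notumor minus DMH (31.6% of all features called) and called 6 of the 9 genes, all lower (13.8% of all features were called lower). These were Mzb1 (-0.50, adjusted p = 0.00171), Ms4a1 (-0.41, 0.0303), Cd22 (-0.39, 0.0204), Cd79a (-0.35, 0.00461), Tnfrsf17 (-0.31, 0.00375) and Pou2af1 (-0.31, 0.016). Jchain (-0.21, adjusted p = 0.0801), Cd79b (-0.29, 0.121) and Pigr (0.13, 0.102) were not called. After normexp correction Cd79a (adjusted p = 0.0505), Cd22 (0.0627) and Tnfrsf17 (-0.09, 0.39) were not called, on the authors' deposited table Pou2af1 (-0.46, 0.0635) and Tnfrsf17 (-0.47, 0.0584) were not, and with slide as a block Ms4a1 (-0.36, 0.0695) was not. Leaving out 1 array moved several of these calls. Ms4a1 was lost without hCA-Tumor replicate 1, hCA-Notumor replicate 2 or 3 or DMH replicate 2 or 3 (adjusted p 0.052 to 0.118), Cd22 without any DMH array (0.0535 to 0.0648) and Pou2af1 without DMH replicate 2 (0.0679). Jchain passed without hCA-Tumor replicate 3 (0.0456), Pigr without hCA-Notumor replicate 2 (0.0467) and Cd79b without hCA-Tumor replicate 2 (0.0182). Only Cd22 and Pou2af1 had all 6 high calcium arrays below all 3 DMH arrays (9.4% of all features did so), since for Cd79a, Ms4a1, Mzb1 and Tnfrsf17 the mean joins a low hCA-Tumor group with an hCA-Notumor group that overlapped DMH. The comparisons of each high calcium group with DMH share the same 3 DMH arrays.

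Within a group, several of the genes shared an order of arrays. Replicate 2 was the highest hCA-Tumor array for Cd79a, Cd79b, Ms4a1, Cd22, Mzb1, Jchain and Pou2af1, but replicate 1 was for Tnfrsf17 and Pigr. In hCA-Notumor, replicate 3 was the lowest for Cd79a, Cd79b, Ms4a1, Cd22, Mzb1 and Pou2af1. For Jchain, Tnfrsf17 and Pigr it was replicate 2. How many of all features had the same orders was not computed, so these orders are not read as particular to the genes. The mean over the 4 B cell genes was -0.14, 0.20 and -0.12 in hCA-Tumor, 0.47, 0.44 and 0.26 in hCA-Notumor and 0.53, 0.61 and 0.50 in DMH.

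Of 36 other B cell genes listed, 32 were tested. In hCA-Tumor 2 rose and 8 fell against DMH, in hCA-Notumor 1 rose and 10 fell against DMH, and between hCA-Tumor and hCA-Notumor 7 were higher and 6 lower. Of all features, 21% were called higher and 15.9% lower in hCA-Tumor than in DMH. For hCA-Notumor against DMH these shares were 18.4 and 17.3%, and for hCA-Tumor against hCA-Notumor 27 and 20.6%. The list's median differences were -0.23, -0.19 and -0.04. Blk, a tyrosine kinase of B cells, was lower in hCA-Tumor than in DMH (-0.71 ± 0.09, adjusted p = 0.000904) but not after normexp correction (-0.33, adjusted p = 0.129). Tnfrsf13c, the receptor for the B cell survival factor BAFF, was lower in hCA-Notumor than in DMH (-0.73 ± 0.17, adjusted p = 0.0128), and not with slide as a block (adjusted p = 0.0833). S1pr2, which confines B cells to germinal centres, was lower in hCA-Notumor than in DMH (-1.17 ± 0.19, adjusted p = 0.00308), but by 0.34 after normexp correction (adjusted p = 0.25). Spi1, a transcription factor of myeloid and B cells, was dim, being well above background on 8 of 9 arrays, and its fall in hCA-Tumor against hCA-Notumor (-0.88 ± 0.17, adjusted p = 0.00494) was not called after normexp correction (-0.24, adjusted p = 0.257).

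Of 30 other plasma cell genes, 29 were tested, and 16 of them were lower in hCA-Tumor than in hCA-Notumor, with 2 higher and a median of -0.29. Against DMH, 13 were lower and 1 higher in hCA-Tumor (median -0.31), whereas 2 were lower and 8 higher in hCA-Notumor (median 0.07). The shares of all features called lower were 20.6% for hCA-Tumor against hCA-Notumor, 15.9% for hCA-Tumor against DMH and 17.3% for hCA-Notumor against DMH. Those called higher were 27, 21 and 18.4%. Many of the listed plasma cell genes serve protein folding and secretion in any secretory cell, epithelium included. Xbp1, a transcription factor of the secretory programme, was 1.76-fold lower in hCA-Tumor than in hCA-Notumor (-0.82 ± 0.05, adjusted p = 3.43e-05), lower in hCA-Tumor than in DMH (-0.51 ± 0.05, adjusted p = 0.000404) and higher in hCA-Notumor than in DMH (0.31 ± 0.05, adjusted p = 0.00277, but 0.12 and 0.646 on the authors' deposited table). This is the order of groups seen for Pigr. Cd38, a surface enzyme of human plasma cells among other cells, had the same order. It was 3.63-fold lower in hCA-Tumor than in hCA-Notumor (-1.86 ± 0.15, adjusted p = 0.000107), with -0.95 over the mean of its probes. Sdf2l1 and Derl3, both proteins of endoplasmic reticulum quality control, were lower in hCA-Tumor than in hCA-Notumor (-0.76 ± 0.06, adjusted p = 0.000131, and -0.75 ± 0.07, adjusted p = 0.000225). Slamf7, a surface receptor of plasma cells in humans, was lower in hCA-Tumor than in DMH (-0.67 ± 0.11, adjusted p = 0.00291), but not after normexp correction (-0.14, adjusted p = 0.528).

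**Figure D4:**
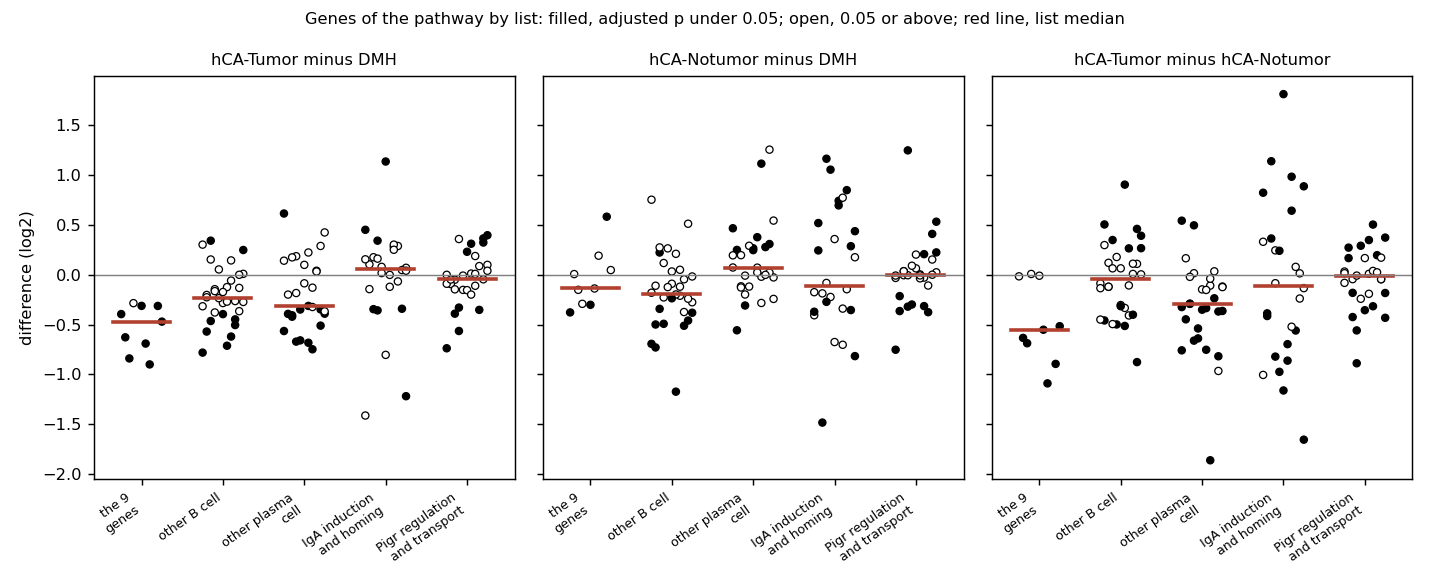
Differences in log2 units (vertical axis) of the 9 genes and of the genes of 4 related lists in 3 comparisons, 1 point per gene, filled where the adjusted p was under 0.05, with the list median as a red line. The other plasma cell genes lie mostly below 0 in the panels for hCA-Tumor (medians -0.31 and -0.29) and about 0 for hCA-Notumor minus DMH (0.07).

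Among signals for IgA induction and homing, 26 of 32 genes were tested. Against DMH, 3 rose and 4 fell in hCA-Tumor and 9 rose and 5 fell in hCA-Notumor. In hCA-Tumor 8 were higher and 9 lower than in hCA-Notumor. The called share of all features was 37, 35.7 and 47.6% in these comparisons. Ccl19, a chemokine that draws lymphocytes to lymphoid tissue, was 2.24-fold higher in hCA-Notumor than in DMH (1.16 ± 0.09, adjusted p = 0.000131) and lower in hCA-Tumor than in hCA-Notumor (-0.82 ± 0.09, adjusted p = 0.000406). Icos, a costimulator on T cells that help B cells, was 3.15-fold lower in hCA-Tumor than in hCA-Notumor (-1.65 ± 0.10, adjusted p = 4.15e-05, and -1.07 after normexp correction). Il33, an alarm cytokine of stroma and epithelium, was 2.8-fold lower in hCA-Notumor than in DMH (-1.48 ± 0.07, adjusted p = 1.85e-05). Itga4, a chain of the gut homing integrin, and Ccr10, the receptor of IgA plasma cells for Ccl28, were dim (8 of 9 arrays each), and their differences between hCA-Tumor and hCA-Notumor (1.81 ± 0.30, adjusted p = 0.00215, and -1.16 ± 0.29, adjusted p = 0.0127) were not called after normexp correction or with slide as a block.

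Of 31 regulators of Pigr and of epithelial vesicle transport, 29 were tested. In hCA-Tumor 5 rose and 5 fell against DMH, and in hCA-Notumor 5 rose and 7 fell. Between hCA-Tumor and hCA-Notumor 7 were higher and 8 lower in hCA-Tumor. The medians were -0.05, -0.01 and -0.01, and 37, 35.7 and 47.6% of all features were called in these comparisons. Tnf, a cytokine that raises PIGR in human epithelial cells, was lower in both high calcium groups than in DMH. The difference was -0.74 ± 0.04 in hCA-Tumor (adjusted p = 5.18e-05) and -0.75 ± 0.04 in hCA-Notumor (adjusted p = 2.11e-05). A link between Tnf and Pigr was not tested. After normexp correction both differences of Tnf were -0.49. Rab25, a small GTPase of epithelial recycling endosomes, was higher in hCA-Notumor than in DMH (0.53 ± 0.07, adjusted p = 0.000919), but not on the authors' deposited table (0.34, adjusted p = 0.181). Rab17, a GTPase of transcytosis, was lower in hCA-Tumor than in DMH (-0.56 ± 0.16, adjusted p = 0.0268), a call lost without hCA-Tumor replicate 1 or 2 or any DMH array (0.0575 to 0.0852). Tnfrsf1a, a receptor for TNF, was higher in hCA-Tumor than in hCA-Notumor (0.50 ± 0.07, adjusted p = 0.00136), by 0.28 with slide as a block. Ifng was well above background on only 7 of 9 arrays, and its rise in hCA-Notumor against DMH (1.25 ± 0.22, adjusted p = 0.00411) was not called after normexp correction (0.40, adjusted p = 0.105).

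The 8 other immunoglobulin receptors were all tested. Against DMH, 2 rose and 1 fell in hCA-Tumor and 0 rose and 3 fell in hCA-Notumor. In hCA-Tumor 4 were higher and 1 lower than in hCA-Notumor. Among all features 37, 35.7 and 47.6% were called in these comparisons. Fcgr1, a high-affinity receptor for IgG on myeloid cells, was 1.84-fold higher in hCA-Tumor than in hCA-Notumor (0.88 ± 0.07, adjusted p = 7.35e-05), the opposite direction to Pigr. Fcgr3, another IgG receptor, was lower in hCA-Tumor than in DMH (-0.56 ± 0.05, adjusted p = 0.00034), and Fcer1g, a signalling chain of several Fc receptors, was lower in hCA-Notumor than in DMH (-0.41 ± 0.07, adjusted p = 0.00359). Trim21, a receptor for antibody in the cytosol, was higher in hCA-Tumor than in DMH (0.33 ± 0.06, adjusted p = 0.00616), but not on the authors' deposited table (0.20, adjusted p = 0.444). Fcgr2b, the inhibitory IgG receptor of B cells, was lower in both high calcium groups together than in DMH (-0.27 ± 0.08, adjusted p = 0.0399), a call lost without any DMH array, hCA-Tumor replicate 1 or hCA-Notumor replicate 1 or 3 (0.0669 to 0.129), with slide as a block (0.0593), with quantile normalization (0.065) and on the authors' deposited table (0.114).

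Markers of other cells were set beside these values. Their counts stand against called shares of all features of 37% (hCA-Tumor and DMH), 35.7% (hCA-Notumor and DMH) and 47.6% (hCA-Tumor and hCA-Notumor). Of 8 markers of all leukocytes, 2 fell and 0 rose in hCA-Tumor against DMH, and limma called 0 between hCA-Notumor and DMH (1 at an unadjusted p under 0.05, lower), with medians of -0.15 and -0.16. Their summed signal was 5.40 to 5.72 in hCA-Tumor, 5.46 to 5.60 in hCA-Notumor and 5.69 to 5.78 in DMH on the scaled log2 scale. Of 8 T cell markers, 3 rose in hCA-Notumor against DMH and 3 were lower in hCA-Tumor than in hCA-Notumor, with summed signals of 2.13 to 2.24 in hCA-Tumor, 2.40 to 2.58 in hCA-Notumor and 2.12 to 2.27 in DMH. Of 6 tested markers of macrophages and dendritic cells, 1 rose and 3 fell in hCA-Tumor and 2 fell in hCA-Notumor against DMH, with summed signals of 3.01 to 3.11 in hCA-Tumor, 3.20 to 3.34 in hCA-Notumor and 3.27 to 3.29 in DMH. Of 8 markers of follicular stroma and lymphatic vessels, 2 rose and 1 fell in hCA-Tumor and 2 rose and 3 fell in hCA-Notumor against DMH.

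Beside the tissue label, 10 epithelial markers were read, all of them well above background on all arrays. They cannot tell normal mucosa from tumor. Their summed signals, which weigh the brightest markers most, were 10.06 to 10.22 in hCA-Tumor, 10.18 to 10.32 in hCA-Notumor and 10.05 to 10.26 in DMH. Of these markers, 2 rose and 1 fell in hCA-Tumor against DMH, and 3 rose and 1 fell in hCA-Notumor against DMH. In hCA-Tumor 1 was higher and 3 lower than in hCA-Notumor. Markers of smooth muscle and fat varied more: all 8 smooth muscle markers rose in hCA-Tumor against DMH and 6 of 8 in hCA-Notumor, with summed signals of 9.20 to 9.58 in hCA-Tumor, 8.70 to 9.01 in hCA-Notumor and 7.79 to 8.57 in DMH. Of 7 adipocyte markers, 6 fell in hCA-Tumor and 7 in hCA-Notumor against DMH, with summed signals of 3.04 to 3.87 in hCA-Tumor, 2.23 to 3.02 in hCA-Notumor and 5.25 to 5.39 in DMH. Smooth muscle thus stood in the order hCA-Tumor, hCA-Notumor, DMH, and 2 of its 8 markers were called higher in hCA-Tumor than in hCA-Notumor. The part of these tissues in the differences of the 9 genes was not tested.

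The tested genes most alike in pattern to the members were found by the root mean square difference of centred signals over the 9 arrays, among 14178 genes with a symbol. Nearest to the mean of the B cell members were Plek (0.0664), Pdcd1 (0.0734), Blk (0.0748), Rhoh (0.0787) and Slamf1 (0.0810), beside an SD of 0.2785 of that mean over the arrays. Nearest to the mean of the plasma cell members were Nme1 (0.0343), Cbx1 (0.0362), Tsfm (0.0402), Pebp1 (0.0462) and Plek (0.0486). Nearest to Pigr were Sqle (0.0516), Npepps (0.0638), Pgap2 (0.0663), Pdxdc1 (0.0683) and Kif5b (0.0708), beside an SD of 0.3977 of Pigr.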

How the data were processed

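RNA of colonic mucosa was measured on 9 Agilent 1-colour arrays of design 014868, 3 in each of 3 groups. Per the file headers, the deposited intensity values are background-subtracted processed signals of the green channel with median spot and background signals beside them, annotated on mm9, and the submitters' processing notes name Agilent Feature Extraction 10.5.1.1. The authors' deposited table of the series holds log2 values of 23726 probes and served as an alternative. Its values had an r of at least 0.999994 against the scanner values, and its column medians were 2.36 to 2.8.

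Here log2 of the processed signal minus each array's 75th percentile was used, without control and outlier spots (383 probes touched). A probe was retained (27192 of 41174) if some group had it well above background on each of its 3 arrays. Probes were named by transcript through RefSeq (25089 with 1 symbol, 16085 unnamed here), and the brightest kept probe stood for a gene, giving 21083 features, 14187 with a symbol. Tests used limma 3.58.1 under R 4.3.3 (lmFit and eBayes, all 9 arrays, Benjamini-Hochberg within each comparison), and the procedure was tested on simulated data. Alternatives were normexp (offset 50), quantile normalization, the deposited table, other dim-probe filters and probe summaries, a trended fit, array weights, only the groups compared, slide as a block and within slides, a replicate block, a 2-fold threshold with unadjusted p, and each array left out.

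All members are named. From each of the other pathway lists, up to 5 genes called in at least 1 comparison, with the largest difference, are named, and the 5 genes nearest in pattern. Lists of cell type markers are given as counts and ranges. A gene that met this rule is not reported here. The members and lists were chosen with earlier results of these data known. The exact permutation test ran over arrays. Not measured here were Cd40, Dnajb11, Tnfsf13, Nfkb1, Cd68 and Zbtb46 (no named probe) and Pax5, Tnfrsf13b, Cd180, Il5, Il6, Il21, Tslp, Cd40lg, Il17a and Lep (too dim).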

Additional observations from a re-analysis of the deposited data

How the results depend on the processing

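The main counts of members called were 8 (hCA-Tumor against DMH), 3 (hCA-Notumor against DMH), 6 (both high calcium groups against DMH) and 6 (hCA-Tumor against hCA-Notumor), from 7795, 7530, 6665 and 10028 called features. With a 2-fold change at an unadjusted p under 0.05, the members called were 0, 0, 0 and 1 and the features 879, 1358, 633 and 1695. After normexp correction the features were 4209, 3880, 3245 and 6238, and 3 members were called for both high calcium groups. On the deposited table, where only 18458 features were tested, the features called were 2403, 3339, 2144 and 4783. There 4 members were called for hCA-Tumor and 0 for hCA-Notumor against DMH. The share of called features that were higher was 39.5, 29.3, 30.3 and 63%, against 56.9, 51.5, 56.5 and 56.7% in the main analysis. Array weights gave 13226 features and 5 members for hCA-Notumor and 10492 features for both groups against DMH. Without a filter 1 member and 5768 of 32665 features were called for hCA-Notumor against DMH. With slide as a block, 1 member and 5633 features were called for hCA-Notumor against DMH, and 6319 features between the high calcium groups. Within slide 2, 5 members and 8441 features were called, and within slide 1, where the lone DMH array is assumed to vary like the others, 1 member and 3701 features. Leaving out each array in turn gave 5977 to 8052 features and 6 to 9 members for hCA-Tumor against DMH, 5295 to 9425 and 1 to 4 for hCA-Notumor against DMH, 4319 to 7473 and 3 to 7 for both groups against DMH, and 8272 to 12263 and 6 to 6 between the high calcium groups. The replicate numbers did not pair the arrays (correlations of same-numbered arrays -0.566 to 0.221, after group means were removed). Differently numbered arrays reached 0.574 (hCA-Tumor replicate 3 with DMH replicate 1). The hCA-Tumor and DMH arrays that shared slide 2 correlated at 0.221 to 0.552. On slide 1, hCA-Notumor arrays and DMH replicate 1 gave -0.191 to 0.114. A slide effect on these residuals was not tested. The replicate block gave 8, 3, 6 and 6 members from 6440, 5964, 5191 and 8836 features and changed the call of no member. Of the recomputed differences of members called in the main analysis, 410 kept direction and call, 61 were no longer called and 0 reversed. Reversals, 25 in all, touched only members not called. Between hCA-Notumor and DMH, Jchain was -0.11 with quantile normalization, -0.14 on the deposited table and -0.11 as the mean of its probes, and Tnfrsf17 was -0.031 with quantile normalization, -0.18 on the deposited table and -0.021 to 0.048 with arrays left out. For both groups against DMH, Pigr was -0.024 on the deposited table. Between the high calcium groups, Cd22 was 0.045 on the deposited table, 0.089 with slide as a block and -0.14 to 0.060 with arrays left out. Pou2af1 was 0.051 on the deposited table, 0.012 with slide as a block and -0.070 to 0.037 with arrays left out, and Cd79b was -0.033 with slide as a block and -0.15 to 0.11 with arrays left out. The deposited table differs from the scaled signal almost only by a constant per array, so its shift was common to the genes of a comparison. Between hCA-Notumor and DMH, for example, Cd22 went from -0.38 to -0.57 and Pigr from 0.58 to 0.39. Why values moved under the other settings was not tested. With 3 arrays per group, small differences of Cd22, Pou2af1 and Cd79b lie at the limit of what can be called.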
